A study of Fundulus heteroclitus with 53 samples.

Results

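The genes described here encode the proteins of the cytosolic ribosome of the Atlantic killifish Fundulus heteroclitus. Members were taken by symbol: every gene whose symbol begins with rpl or rps followed by a digit, with rplp and a digit, or with rpsa, leaving out the rps6k kinases. This gave 78 of the 34089 genes listed, 47 named for the large and 31 for the small subunit. Of these, 77 passed the filter on low counts. The exception, rpl22l1, a paralog of the large subunit gene rpl22, had 26 counts over all fish. The symbol rps19bp1 stands for a protein that binds rps19 and is not part of the ribosome, and rpl7l1, rps27.1 and rps27.2 mark paralogs.

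RNA-seq counts came from livers of 30 juvenile killifish, 6 months old, held for 6 h at 1 of 3 oxygen levels, with 5 fish in each of 6 groups. The groups were NBH control, NBH mild hypoxia and NBH severe hypoxia, and SC control, SC mild hypoxia and SC severe hypoxia, where mild is 10% oxygen, severe is 5% oxygen and control fish stayed in ambient oxygen. NBH fish descend from New Bedford Harbor, a population resistant to dioxin-like PCBs, and SC fish from Scorton Creek, a reference population. All were first-generation offspring bred by in vitro fertilization from a few parents of each population, so a p-value reflects how the sampled fish vary, not how families do.

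A cytosolic ribosome joins a small subunit, which reads the mRNA, to a large subunit, which forms the peptide bond, and each holds ribosomal RNA and 1 copy of most of its proteins. The messages of these proteins are among the most abundant of any cell, and their levels usually move together because the subunits need their parts in matching amounts. Many begin with a terminal oligopyrimidine (TOP) tract, through which the kinase TOR sets how strongly they are translated. Making ribosomes is costly, and it is a process that cells are known to adjust when oxygen is short. The roles given below are known from yeast and mammals.

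Total counts per fish ran from 4955114 to 23849931. The fish with the smallest total, NBH severe hypoxia replicate 5, had the lowest level of all 30 fish in 62 of the 77 members, so counts of member calls and some single results are also given for 29 fish, without it. NBH mild hypoxia replicate 3 stood apart in another way: in several genes described below it lay at the level of control fish. The label liver held in every fish, with 15 of 26 listed hepatocyte markers in the files and a summed level of 106576 to 236734 CPM, which are counts per 1e+06 counts. All CPM values are scaled by TMM factors, which assume that most genes do not change. These factors ran from 0.903 to 1.26 in the 20 hypoxia fish and from 0.765 to 0.992 in the 10 control fish.

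The ribosomal protein genes took between 5.72% and 10.7% of all counts in a fish. In NBH fish their share averaged 7.67% ± 0.847 (SD) in control, 9.90% ± 0.699 in mild hypoxia and 8.43% ± 1.72 in severe hypoxia (n = 5 each). In SC fish it averaged 8.35% ± 0.911 in control, 8.61% ± 1.62 in mild hypoxia and 9.02% ± 0.597 in severe hypoxia. The NBH mild hypoxia fish ranged from 8.79% to 10.7% and overlapped the NBH control fish, at 6.95% to 9.05%, only through replicate 5 of mild hypoxia and replicate 3 of control. After TMM scaling the summed level was 98625 ± 9140 CPM in NBH mild hypoxia and 95460 ± 11364 CPM in NBH control, so these groups lay closer than their raw shares. The other comparisons turned direction with the scaling: the summed level was 77868 ± 18949 CPM in NBH severe hypoxia, below NBH control, and 79751 ± 17027 CPM in SC mild hypoxia and 77862 ± 7737 CPM in SC severe hypoxia, against 93392 ± 13446 CPM in SC control, whereas the raw shares of these hypoxia groups averaged above their controls. These sums are descriptions and were not tested.

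**Figure D1:**
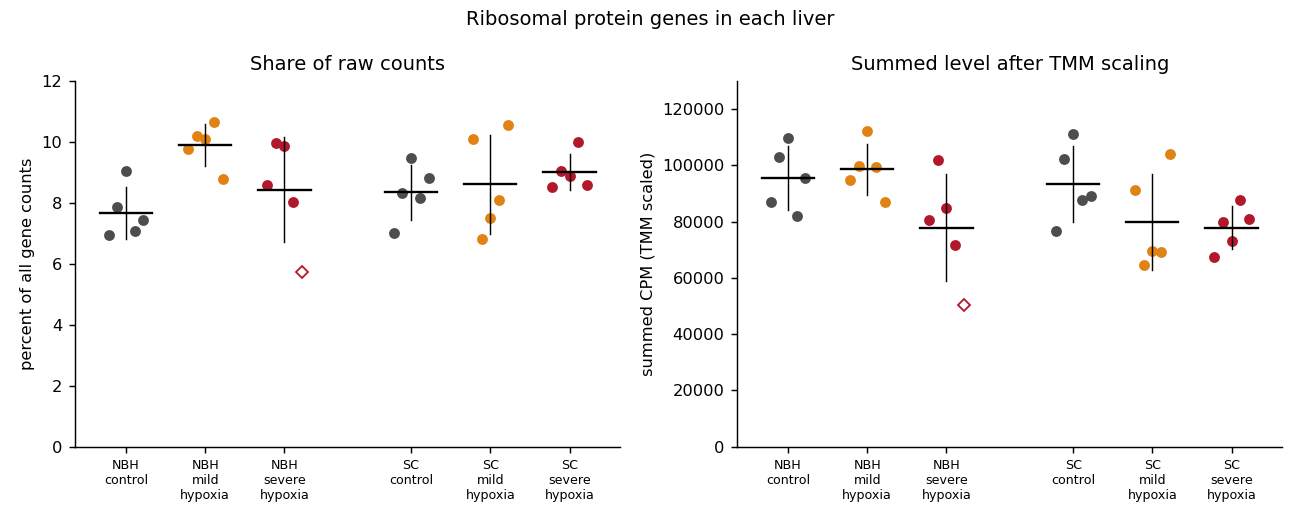
Ribosomal protein genes in each of the 30 livers. The left panel gives their share of all gene counts in percent and the right panel their summed level in TMM-scaled CPM. Each point is 1 fish, the open diamond is NBH severe hypoxia replicate 5, the horizontal line is the group mean and the vertical bar is 1 SD either way. The open diamond is the lowest point in both panels, at 5.72% and 50278 CPM.

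Single members differed widely in level. 8 of the 77 tested members averaged under 200 CPM, from 4.0 CPM for rps28 to 166 CPM for rpl22, and included rps19bp1, rpl24, rpl7l1, rpl5a, rps2 and rps27.2. The other 69 averaged between 564 and 2797 CPM, with rpl13a at the top. These are levels per gene, not per length. A low member may have near-identical copies among genes that carry only a LOC name, and how reads shared by such copies were handled is not given in the sources used here, so these low levels and their changes are uncertain.

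Across fish of the same group the members mostly moved together. The correlation of each member with the median of the others, taken on log2 CPM as deviations from group means over 30 fish, had a median of 0.88 over the 77 members and exceeded 0.8 in 54. The lowest were rps19bp1 at -0.38, rpl24 at 0.10 and rpl29 at 0.17. These points share library depth and scaling, and the values are descriptions. The ratio of large subunit to small subunit counts was 1.56 to 1.73 in the 20 hypoxia fish and 1.68 to 1.81 in the 10 control fish. Each gene weighs in this ratio by its counts, so it does not describe a subunit as a whole. The large subunit genes rpl29, rpl32, rpl36 and rplp2 are described below as lower in hypoxia, and their part in the ratio was not tested.

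The first question was how hypoxia changed these genes within each population. edgeR's quasi-likelihood test was applied to all 13609 genes that passed the filter, and a gene was called at a Benjamini-Hochberg adjusted p under 0.05. Mild and severe hypoxia were each set against the same 5 control fish of their population, so the comparisons within a population are not independent. The same call rule over all genes gives the background for each count.

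In NBH fish under mild hypoxia, 9 members were upregulated and 5 downregulated of 77, against 21% of all tested genes called in either direction (11% higher and 10% lower). The median log2 fold change was 0.24 over the members and 0.02 over all genes. In 30 members every NBH mild hypoxia fish lay above every NBH control fish, against 7.45% of all tested genes, and in 0 members did every one lie below, against 6.19% of all tested genes. Because members share their libraries and mostly move together within groups, the 30 are not independent observations. With 29 fish in the fit, 19 members were higher and 5 lower, against 24% of all genes. Of the 2 subunits, the large one had 6 higher and 3 lower of 46 and the small one 3 higher and 2 lower of 31.

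NBH fish under severe hypoxia had 0 members higher and 8 lower in edgeR, against 14% of all tested genes called (7.45% higher and 6.51% lower). DESeq2 called 10 members, and its share over all genes is not given here. In edgeR 15 members had an unadjusted p under 0.05 in either direction. So did 4042 of all 13609 tested genes, a larger share than that of the members. The median log2 fold change was -0.10 for the members and 0.04 for all genes. Without NBH severe hypoxia replicate 5 the median turned to 0.04, with 1 member higher and 6 lower, against 17.5% of all genes. In 6 members every severe hypoxia fish lay below every control fish, against 4.57% of all tested genes, and in 0 members above, against 4.44%.

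In SC mild hypoxia 0 members were higher and 8 lower in edgeR, against 13.6% of all tested genes (7.25% higher and 6.36% lower). DESeq2 called 9 members there, and its share over all genes is not given here. In edgeR 15 members had an unadjusted p under 0.05. So did 4004 of all 13609 tested genes, a larger share than that of the members. In SC severe hypoxia 1 was higher and 11 lower, against 28.7% of all tested genes (15.2% higher and 13.5% lower). With 29 fish in the fit, 0 were higher and 8 lower in SC mild hypoxia (16.1% of all genes) and 2 higher and 13 lower in SC severe hypoxia (31.9%). The median log2 fold change was -0.06 in mild and -0.09 in severe hypoxia, with all genes at 0.00 and 0.01. In severe hypoxia 9 members lay below every SC control fish, against 8.45% of all tested genes, and 1, rpl24, lay above, against 9.89%. In mild hypoxia 2 lay below, against 5.6%, and 0 above, against 6.3%. Counted in both directions, called members were a smaller share than called genes in both SC comparisons, while lower calls alone were a larger share of the members than of all genes in mild hypoxia and close to it in severe hypoxia.

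These counts and directions hold relative to the TMM scaling. Without TMM factors the median of all genes itself shifted to 0.34 in NBH mild, 0.47 in NBH severe, 0.28 in SC mild hypoxia and 0.38 in SC severe hypoxia, and the members' medians to 0.56, 0.32, 0.22 and 0.28 in the same order. Calls then were 51 higher and 2 lower in NBH mild hypoxia (30.4% of all genes called), 24 higher and 4 lower in NBH severe hypoxia (33.4%). They were 5 higher and 3 lower in SC mild hypoxia (22.4%) and 23 higher and 5 lower in SC severe hypoxia (38.8%). Another scaling, to the total of ribosomal protein counts, was chosen after seeing the data. It gave 24 called members in NBH mild (17 higher and 7 lower, 12.1% of all genes) and 16 in NBH severe hypoxia (12 and 4, 17.5%). In SC fish it gave 15 in mild (9 higher and 6 lower, 14.5%) and 27 in severe hypoxia (19 and 8, 27.2%). Higher calls outnumbered lower calls in each comparison under this scaling. It holds the members' total fixed, so where some abundant members fall, others must rise. The balance of higher and lower calls is thus partly set by the scaling and is not read as a result. Set against the median of all genes, the members' median was 0.22 in NBH mild, -0.14 in NBH severe, -0.06 for SC mild and -0.10 for SC severe hypoxia with TMM factors, and 0.21, -0.15, -0.06 and -0.10 in the same order without them. Library scaling moves both medians by about the same amount. The likeness therefore follows from the subtraction and is no check of the scaling.

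**Figure D2:**
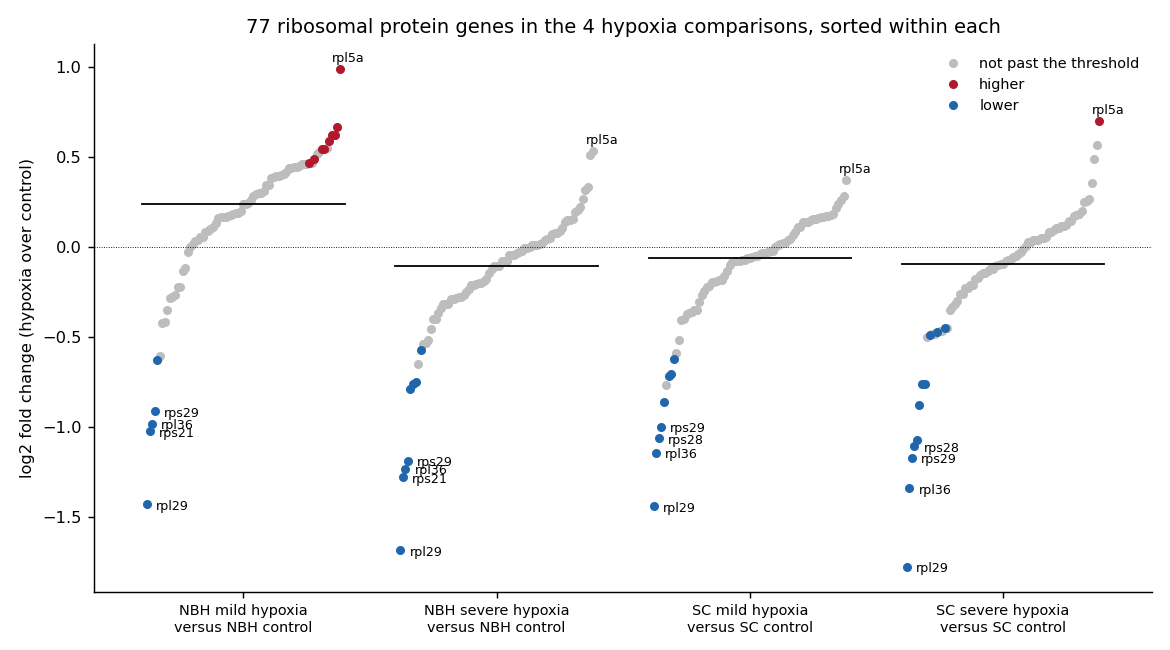
Log2 fold change, hypoxia over control of the same population, of the 77 tested ribosomal protein genes, sorted within each comparison. Red points are called higher, blue points lower and grey points neither, the horizontal line is the median of the members, and the 4 lowest and the highest member are named. NBH mild hypoxia has its median at 0.24, above the other 3, which lie between -0.10 and -0.06.

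The downregulated members were led by a small set of genes at both oxygen levels. NBH and SC fish share no libraries, and in severe hypoxia 7 members fell in both populations: rpl23, rpl29, rpl32, rpl36, rplp2, rps21 and rps29. They were 87.5% of the members that fell in NBH fish and 63.6% of those that fell in SC fish, beside 64.0% and 30.9% over all tested genes, of which 567 fell in both. Without TMM factors the severe hypoxia calls of rpl23, rpl32 and rplp2 were lost in both populations, and those of rpl29, rpl36, rps21 and rps29 remained. In mild hypoxia 4 members fell in both: rpl29, rpl36, rplp2 and rps29, which were 80% of those in NBH fish and 50% of those in SC fish, beside 30.2% and 47.7% over all tested genes, of which 413 fell in both. The mild share of SC fish was thus close to that of all genes, and no share was tested against all genes. Without TMM factors the mild hypoxia calls of rplp2 and rps29 were lost in both populations, and that of rpl36 in NBH fish. Several of these shared members encode some of the smallest proteins of the ribosome.

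The gene rpl29 encodes a short basic protein at the surface of the large subunit (gene ID 105930925, chromosome 20, 16119379 to 16122977 on assembly MU-UCD_Fhet_4.1). In NBH severe hypoxia it stood at 1068, 1150, 751, 1633 and 1212 CPM, and in NBH control at 3181, 3787, 5907, 2239 and 3574 CPM. Every severe hypoxia fish lay below every control fish, and the log2 fold change was -1.68 ± 0.386 (SE, edgeR adjusted p = 0.00495). In NBH mild hypoxia it stood at 1119, 888, 3136, 1046 and 758 CPM. 4 of these 5 fish lay below all controls and replicate 3 lay among them, and the log2 fold change was -1.43 ± 0.383 (edgeR adjusted p = 0.00964).

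SC fish gave the same order for rpl29. It had 681, 816, 898, 1020 and 1818 CPM in SC severe hypoxia, against 3382, 2733, 5291, 2243 and 4270 CPM in SC control. The groups did not overlap, and the log2 fold change was -1.78 ± 0.387 (edgeR adjusted p = 0.00130). SC mild hypoxia fish had 1759, 1424, 559, 726 and 2139 CPM, again all below the controls, with a log2 fold change of -1.44 ± 0.383 (edgeR adjusted p = 0.0126). All 4 calls of rpl29 remained when any 1 fish of the groups compared was left out, with the highest adjusted p at 0.0437 in SC mild hypoxia without its replicate 4.

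A large subunit gene of an unplaced scaffold, rpl36 (gene ID 105922544), followed closely. It had 1423, 1595, 1063, 1898 and 1345 CPM in NBH severe hypoxia, against 3085, 3701, 4348, 2452 and 3611 CPM in NBH control, a log2 fold change of -1.23 ± 0.304 (edgeR adjusted p = 0.00820). In SC severe hypoxia it had 974, 1185, 1290, 1497 and 2156 CPM, against 3233, 3515, 5316, 2312 and 3600 CPM in SC control (log2 fold change -1.34 ± 0.305, edgeR adjusted p = 0.00189). Neither pair of groups overlapped. In mild hypoxia the log2 fold change was -0.98 ± 0.302 in NBH fish and -1.14 ± 0.303 in SC fish (edgeR adjusted p = 0.0219 and 0.0125). The NBH mild call was lost without NBH mild hypoxia replicate 2, 4 or 5 or NBH control replicate 3, with adjusted p between 0.0591 and 0.0706. It was also lost without TMM factors.

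In the small subunit the same was seen for rps29, a zinc-binding protein of the head of the subunit (gene ID 105919226, chromosome 15, 18732959 to 18734052), and rps21 (gene ID 105938338, chromosome 1, 37947238 to 37954993). NBH severe hypoxia fish had 1006, 1029, 661, 1203 and 798 CPM of rps29, against 1936, 2371, 2881, 1510 and 2001 CPM in NBH control fish. All severe hypoxia fish were lower, and the log2 fold change was -1.19 ± 0.310 (edgeR adjusted p = 0.0118). SC severe hypoxia fish had 615, 749, 858, 1036 and 1554 CPM, against 1819, 2153, 3194, 1440 and 2233 CPM in SC control fish (log2 fold change -1.17 ± 0.310, edgeR adjusted p = 0.00614). Here replicate 5 of severe hypoxia overlapped the lowest control. In mild hypoxia rps29 fell by 0.91 in NBH fish and by 0.998 in SC fish on the log2 scale (edgeR adjusted p = 0.0355 and 0.0298). These mild hypoxia calls were less stable: the NBH call was lost without NBH mild hypoxia replicate 1, 2, 4 or 5 or NBH control replicate 1, 2 or 3 (adjusted p 0.0505 to 0.104), and the SC call without SC mild hypoxia replicate 2, 3 or 4 or SC control replicate 3 or 5 (adjusted p 0.0548 to 0.104). Both mild hypoxia calls were also lost without TMM factors.

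The level of rps21 was 903, 1017, 715, 1152 and 870 CPM in NBH severe hypoxia, against 2160, 2406, 3094, 1664 and 1970 CPM in NBH control, with no overlap. Its log2 fold change was -1.28 ± 0.291 in NBH severe hypoxia, -1.02 ± 0.289 in NBH mild hypoxia and -1.07 ± 0.289 in SC severe hypoxia (edgeR adjusted p = 0.00473, 0.0133 and 0.00703). These 3 calls remained without any 1 fish of the groups compared. SC severe hypoxia fish held 591 to 1386 CPM with a median of 845 CPM, and SC control fish 1416 to 2574 CPM with a median of 1830 CPM. In SC mild hypoxia rps21 was not called, and its fish ranged from 642 to 1766 CPM.

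**Figure D3:**
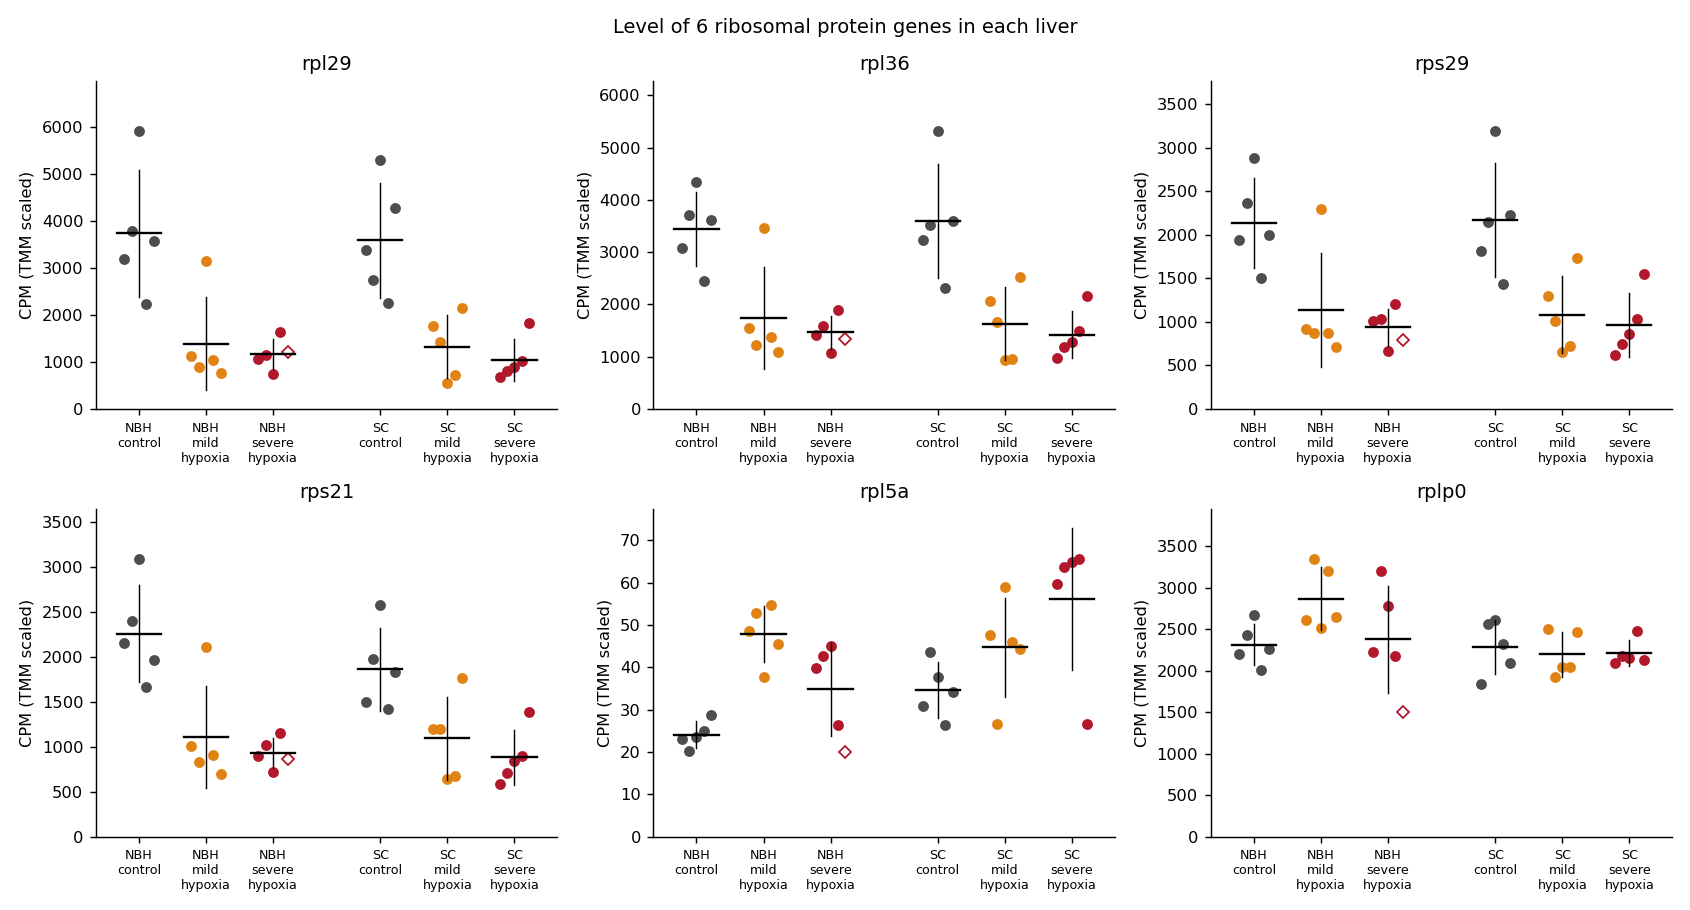
TMM-scaled CPM of rpl29, rpl36, rps29, rps21, rpl5a and rplp0 in each of the 30 livers, 1 panel per gene with its own axis from 0. Each point is 1 fish, the open diamond is NBH severe hypoxia replicate 5, the horizontal line is the group mean and the vertical bar is 1 SD either way. The first 4 genes are lower in nearly all hypoxia fish than in controls, with NBH mild hypoxia replicate 3 the highest of its group, rpl5a averages 47.9 CPM in NBH mild hypoxia and 24.1 CPM in NBH control, and rplp0 shows no such gap.

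The acidic stalk of the large subunit, which recruits translation factors, is built from rplp0, rplp1 and rplp2. Of these, rplp2 (gene ID 105928015, chromosome 20, 9100612 to 9103301) averaged 699 ± 129 CPM in NBH severe hypoxia and 1184 ± 91.3 CPM in NBH control (log2 fold change -0.76 ± 0.205, edgeR adjusted p = 0.0142). In SC severe hypoxia it averaged 645 ± 83.1 CPM, against 1094 ± 222 CPM in SC control (log2 fold change -0.76 ± 0.205, edgeR adjusted p = 0.00688). The groups did not overlap in either population. It also fell in mild hypoxia, by 0.63 in NBH fish and by 0.71 in SC fish on the log2 scale (edgeR adjusted p = 0.0295 and 0.0195). The NBH mild call was lost without NBH mild hypoxia replicate 2, 4 or 5 or NBH control replicate 1, 2 or 3 (adjusted p 0.0517 to 0.0917), and the SC mild call without SC mild hypoxia replicate 3 or 4 or SC control replicate 3 (adjusted p 0.0635 to 0.0682). Without TMM factors all 4 calls of rplp2, mild and severe, were lost. The base of the stalk, rplp0, was not called in any of the 4 comparisons, with log2 fold changes of 0.31 ± 0.157 in NBH mild, 0.04 ± 0.157 in NBH severe, -0.06 ± 0.157 in SC mild hypoxia and -0.05 ± 0.157 in SC severe hypoxia. The third stalk gene, rplp1, was not called in any of these comparisons either.

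Among the remaining large subunit genes, rpl32 (gene ID 105921932, on an unplaced scaffold) averaged 2261 ± 411 CPM in NBH severe hypoxia and 3900 ± 619 CPM in NBH control (log2 fold change -0.79 ± 0.226, edgeR adjusted p = 0.0203). This call was lost without NBH severe hypoxia replicate 3 or NBH control replicate 2 (adjusted p 0.0553 to 0.0575). In SC fish rpl32 fell in severe hypoxia by 0.76 and in mild hypoxia by 0.71 on the log2 scale (edgeR adjusted p = 0.0130 and 0.0344). The mild call was lost without SC mild hypoxia replicate 2, 3 or 4 or SC control replicate 1, 2, 3 or 5 (adjusted p 0.0551 to 0.108). Without TMM factors the calls of rpl32 in NBH severe, SC severe and SC mild hypoxia were all lost. A protein that lines the exit tunnel of the nascent chain, rpl39 (gene ID 105925730, chromosome 23, 4173576 to 4176581), averaged 1065 ± 323 CPM in SC severe hypoxia and 1959 ± 423 CPM in SC control, with no overlap. It fell in SC severe hypoxia by 0.88 and in SC mild hypoxia by 0.86 on the log2 scale (edgeR adjusted p = 0.0135 and 0.0267). The mild hypoxia call was lost without SC mild hypoxia replicate 2, 3 or 4 or SC control replicate 3 (adjusted p 0.0533 to 0.0876). Both rpl39 calls were lost without TMM factors. In NBH fish rpl39 was not called in either comparison. No difference in rpl39 between the populations or their responses was called by edgeR, so these calls do not show its fall to be limited to SC fish.

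The remaining lower calls of the large subunit were rpl23, rpl38, rpl13a and rpl23a, named here after their values were seen. The small subunit genes rps27.2 and rps28, lower in SC fish, are described further below. The gene rpl23 fell by 0.57 in NBH severe and by 0.49 in SC severe hypoxia on the log2 scale (edgeR adjusted p = 0.0288 and 0.0372). The NBH call was lost without NBH severe hypoxia replicate 3 or 5 or NBH control replicate 2 or 3 (adjusted p 0.0627 to 0.0770), and the SC call without SC severe hypoxia replicate 1, 2 or 3 or SC control replicate 2, 3 or 5 (adjusted p 0.0570 to 0.102). In NBH severe hypoxia rpl38 fell by 0.75 (edgeR adjusted p = 0.0435), lost without NBH severe hypoxia replicate 2, 3 or 5 or NBH control replicate 1, 2 or 3 (adjusted p 0.0579 to 0.133). Among SC severe hypoxia calls, rpl13a fell by 0.47 and rpl23a by 0.45 (edgeR adjusted p = 0.0478 and 0.0362). Both were lost without SC severe hypoxia replicate 1, 2 or 3 or SC control replicate 2, 3 or 5, and rpl13a also without SC control replicate 4 (adjusted p 0.0550 to 0.124). All calls of rpl23, rpl38, rpl13a and rpl23a were lost without TMM factors.

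Set together, rpl29, rpl32, rpl36, rplp2, rps21 and rps29 show how the makeup of the ribosomal protein messages differed. This set was chosen after its values were seen, so its share is a description. It took 17.3% ± 1.75 of all ribosomal protein counts in NBH control, 8.63% ± 3.37 in NBH mild hypoxia and 10.0% ± 2.91 in NBH severe hypoxia (SD, n = 5 each). In SC fish it took 16.8% ± 3.10 in control, 9.72% ± 2.51 in mild hypoxia and 8.92% ± 2.38 in severe hypoxia. The share is a ratio within a library and needs no scaling factor. Over both populations the 20 hypoxia fish ran from 6.60% to 14.5% and the 10 control fish from 12.6% to 19.8%, and the hypoxia fish with the highest share was NBH mild hypoxia replicate 3. The other 71 tested members had a median log2 fold change of 0.26 in NBH mild, -0.08 in NBH severe, -0.05 in SC mild hypoxia and -0.07 in SC severe hypoxia.

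**Figure D4:**
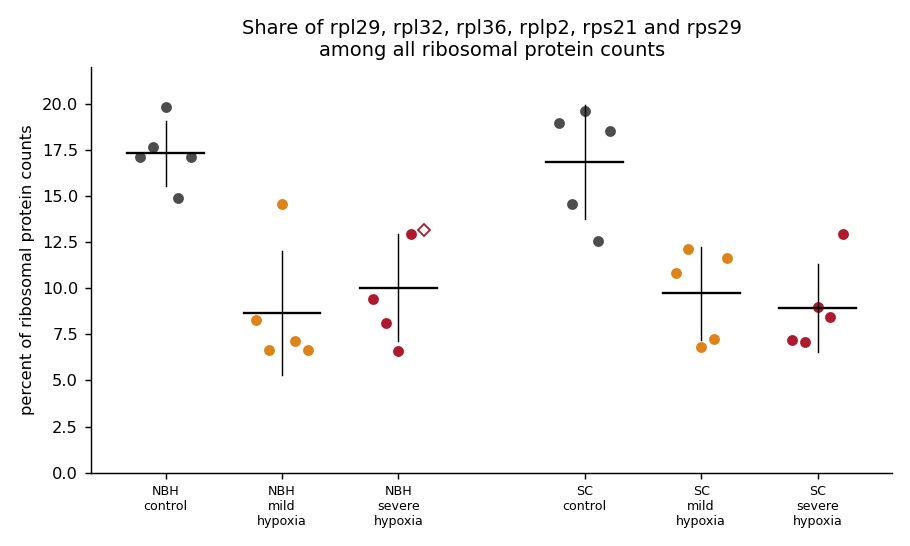
Share of rpl29, rpl32, rpl36, rplp2, rps21 and rps29 among all ribosomal protein counts, in percent, in each of the 30 livers. Each point is 1 fish, the open diamond is NBH severe hypoxia replicate 5, the horizontal line is the group mean and the vertical bar is 1 SD either way. The 10 control fish lie between 12.6% and 19.8%, and all hypoxia fish but 4 lie below the lowest of them.

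Markers of some other cell types moved with the same contrast, and those of others did not. The 11 stellate and fibroblast markers in the files, of 12 listed, summed to 154 to 236 CPM in NBH control, 46.8 to 87.2 CPM in NBH mild hypoxia and 43.3 to 319 CPM in NBH severe hypoxia. In SC fish they summed to 144 to 321 CPM in control, 41.1 to 75.5 CPM in mild hypoxia and 38.9 to 51.7 CPM in severe hypoxia. The highest hypoxia value, 319 CPM, was NBH severe hypoxia replicate 5. By single genes, of the 9 tested stellate and fibroblast markers 1 rose and 7 fell in NBH mild, 0 rose and 5 fell in NBH severe and 0 rose and 7 fell in both SC comparisons, with median log2 fold changes from -2.08 to -1.29. Leukocyte and erythrocyte markers were called lower mainly in SC severe hypoxia, where 8 of 9 and 5 of 5 fell, with medians of -1.62 and -2.03. In the other 3 comparisons 1 to 2 of each list fell. Leukocyte medians there were -0.81 in NBH mild, -0.72 in NBH severe and -0.91 in SC mild hypoxia. Erythrocyte medians were -0.48, -0.74 and -0.82 in the same order. Summed leukocyte markers were at 9.19 to 20.1 CPM in SC mild and 5.06 to 22.2 CPM in SC severe hypoxia, against 24.4 to 36.7 CPM in SC control. In NBH fish these sums overlapped between control and hypoxia. Of 10 tested markers of proliferating cells 4 fell in SC mild hypoxia, with a median of -1.59. The SC severe comparison had 1 that fell and a median of -1.12. NBH fish had 0 of these markers called at either level, with medians of -0.11 for mild and 0.57 for severe hypoxia. Among 8 tested endothelial markers 1 rose and 1 fell in each comparison, with medians from -0.07 to 0.41. Among 6 tested exocrine pancreas markers 0 were called in any of them, with medians from -0.85 to 0.21. Summed hepatocyte markers were at 134570 to 170534 CPM in NBH hypoxia fish, against 184019 to 234839 CPM in NBH control, and at 106576 to 144028 CPM in SC hypoxia fish, against 164035 to 236734 CPM in SC control. That sum is carried by a few genes such as apoa2 and tfa, and the list was mixed: of 14 tested, 3 rose and 4 fell in NBH mild, 0 rose and 4 fell in NBH severe, 2 rose and 3 fell in SC mild, and 3 rose and 4 fell in SC severe hypoxia, with medians of 0.02, -0.08, 0.14 and 0.14. Of 5 tested cholangiocyte markers 1 fell in each comparison and 1 rose in NBH mild and in SC severe hypoxia, with medians from -0.35 to 0.15. Their sum was 754 to 1096 CPM in NBH control, 408 to 685 CPM in NBH mild and 401 to 655 CPM in NBH severe hypoxia. In SC fish it was 642 to 1048 CPM in control, 353 to 457 CPM in mild and 309 to 453 CPM in severe hypoxia. This sum is carried largely by krt18a.1, which averaged 428 CPM. The most abundant single gene took 4.14% to 8.59% of counts in hypoxia fish and 6.27% to 11.96% in control fish. In whole livers, fewer cells of a type and less RNA per cell cannot be told apart, and the part of these differences in the ribosomal protein results was not tested.

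The member most raised by hypoxia was rpl5a (gene ID 105920466, chromosome 6, 4122711 to 4127829). Its protein carries 5S ribosomal RNA into the large subunit together with rpl11. NBH mild hypoxia fish had 48.7, 52.8, 37.8, 54.8 and 45.5 CPM, against 22.99, 20.1, 23.6, 25.02 and 28.8 CPM in NBH control fish. Every mild hypoxia fish was higher, the log2 fold change was 0.99 ± 0.233 (edgeR adjusted p = 0.00405), and the call remained without any 1 fish of these groups. NBH severe hypoxia fish had 39.9, 42.7, 45.0, 26.3 and 20.05 CPM and were not called (log2 fold change 0.53 ± 0.232, edgeR adjusted p = 0.121). With 29 fish, without replicate 5, this rise was called (log2 fold change 0.68, edgeR adjusted p = 0.0366).

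In SC severe hypoxia rpl5a was at 59.7, 63.8, 65.0, 65.7 and 26.5 CPM, against 30.8, 43.7, 37.8, 26.5 and 34.2 CPM in SC control. 4 of the 5 severe hypoxia fish lay above all controls, and replicate 5 lay with the lowest control. The log2 fold change was 0.70 ± 0.231 (edgeR adjusted p = 0.0240), and the call was lost without SC severe hypoxia replicate 2, 3 or 4 or SC control replicate 1 or 4 (adjusted p 0.0510 to 0.0600). SC mild hypoxia fish had 47.7, 26.6, 59.07, 46.0 and 44.4 CPM and were not called (log2 fold change 0.37 ± 0.231).

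The other 8 members upregulated in NBH mild hypoxia were rps27.1, rps6, rps9, rpl7l1, rpl26, rpl18, rpl17 and rpl35, of which rpl17, rpl18, rpl26 and rpl35 are named here after their values were seen. The small subunit gene rps27.1 (gene ID 105935138, chromosome 13, 19232803 to 19235880) encodes a zinc finger protein. It had 842, 1048, 730, 1010 and 962 CPM in NBH mild hypoxia, against 548, 630, 603, 579 and 625 CPM in NBH control. No fish overlapped, and the log2 fold change was 0.62 ± 0.181 (edgeR adjusted p = 0.0157). The kinase S6K, downstream of TOR, phosphorylates the product of rps6 (gene ID 105915658, chromosome 5, 16599724 to 16603607). It averaged 1730 CPM in NBH mild hypoxia and 1124 CPM in NBH control, with a log2 fold change of 0.62 ± 0.191 (edgeR adjusted p = 0.0217), and the call was lost without NBH mild hypoxia replicate 4 or NBH control replicate 1 (adjusted p 0.05004 to 0.0536).

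The gene rps9 (gene ID 105934984, chromosome 3, 27033068 to 27036933), whose product sits where mRNA enters the small subunit, had a log2 fold change of 0.59 ± 0.174 in NBH mild hypoxia (edgeR adjusted p = 0.0173). A relative of rpl7, rpl7l1 (gene ID 105937121, chromosome 15, 27320402 to 27330071), averaged 30.8 ± 5.25 CPM in NBH mild hypoxia and 19.4 ± 3.77 CPM in NBH control (log2 fold change 0.67 ± 0.206, edgeR adjusted p = 0.0222). Its call was lost without NBH mild hypoxia replicate 1 or NBH control replicate 4 (adjusted p 0.0551 to 0.0618). The log2 fold changes of rpl26, rpl18, rpl17 and rpl35 were 0.54, 0.55, 0.49 and 0.47. The call of rpl35 was lost without any 1 of the 10 fish compared (adjusted p 0.0563 to 0.102), and that of rpl26 without NBH mild hypoxia replicate 2 or NBH control replicate 1 (adjusted p 0.0541 to 0.0590). Those of rpl17 and rpl18 were lost without NBH mild hypoxia replicate 2, 4 or 5 or NBH control replicate 1, 2 or 4, that of rpl17 also without NBH control replicate 5 and that of rpl18 without NBH mild hypoxia replicate 1 (adjusted p 0.0515 to 0.0832). None of these 8 genes was called in NBH severe, SC mild or SC severe hypoxia in the fit to 30 fish.

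The paralogs rps27.1 and rps27.2 were not alike in level or calls. On chromosome 3, rps27.2 (gene ID 105928521, 25966173 to 25970686) averaged 81.2 ± 20.2 CPM in SC mild hypoxia and 125 ± 21.2 CPM in SC control (log2 fold change -0.62 ± 0.193, edgeR adjusted p = 0.0303). In the same comparison rps27.1 averaged 694 ± 116 CPM in SC mild hypoxia and 570 ± 55.5 CPM in SC control, with a log2 fold change of 0.29 ± 0.180, and was not called. The difference between the paralogs was not tested. The call of rps27.2 was lost without SC mild hypoxia replicate 2, 4 or 5 or SC control replicate 2, 3 or 5 (adjusted p 0.0517 to 0.0869). It was also lost without TMM factors. No change was called for rps19bp1 (gene ID 105915397, chromosome 5, 29435807 to 29442361), which ranged from 5.11 to 29.98 CPM and averaged 15.6 CPM.

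Severe and mild hypoxia were also compared directly. In SC fish, 0 of 77 members were called by edgeR or DESeq2, against 2.9% of all genes called by edgeR. An unadjusted p under 0.05 in edgeR was found in 0 members, beside 1899 of all 13609 tested genes. In NBH fish 0 were called by either tool, against 1.95% of all genes called by edgeR. An unadjusted p under 0.05 in edgeR was found in 33 members, beside 2379 of all 13609 tested genes. The log2 fold change of NBH severe over NBH mild hypoxia was negative in 76 of 77 members, with a median of -0.34 against -0.00 for all genes. Without NBH severe hypoxia replicate 5 the median was -0.22. These members share their libraries and mostly move together within groups, so their number is not a number of independent observations.

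The second question was whether NBH and SC fish differed. At control oxygen 1 member was called, against 1.62% of all genes (0.742% lower): rps28, a small subunit protein near the mRNA exit (gene ID 118563389, chromosome 6, 3097783 to 3100545). It had 2.45, 3.99, 2.52, 2.41 and 3.52 CPM in NBH control, against 5.46, 7.34, 7.41, 6.12 and 6.13 CPM in SC control. All NBH control fish were lower, as in 2.17% of all genes, and the log2 fold change was -1.12 ± 0.289 (edgeR adjusted p = 0.0402). These values rest on 15 to 83 counts per fish, and the call was lost without any 1 of the 10 fish (adjusted p 0.0513 to 0.0995).

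Within SC fish, rps28 fell in both hypoxia groups. It had 3.52, 2.14, 2.44, 3.35 and 3.61 CPM in SC severe hypoxia, below all SC control fish, with a log2 fold change of -1.11 ± 0.275 (edgeR adjusted p = 0.00383). In SC mild hypoxia it had 4.57, 3.20, 2.84, 2.26 and 2.45 CPM, also below all controls (log2 fold change -1.06 ± 0.283, edgeR adjusted p = 0.0128). In NBH fish the log2 fold changes were 0.53 ± 0.286 in mild and 0.51 ± 0.287 in severe hypoxia, and neither was called. The difference between the populations' responses was 1.59 ± 0.403 for mild and 1.62 ± 0.397 for severe hypoxia (edgeR adjusted p = 0.225 and 0.131), and the severe one passed in DESeq2 (adjusted p = 0.0265).

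Another member of low level, the large subunit gene rpl24, which joins the subunits by a bridge (gene ID 118563708, chromosome 7, 20820899 to 20825505), was nearly absent in 3 fish. NBH severe hypoxia replicate 3 had 5 counts, and NBH mild hypoxia replicates 4 and 5 had 3 and 2 counts, at 0.22, 0.15 and 0.14 CPM. The other 27 fish had at least 50 counts and 8.52 to 33.7 CPM. These 3 libraries held 19185385, 18728806 and 14340624 counts in all, within the range of the other fish. All 3 were NBH fish, and no comparison called rpl24, whose standard errors reached 1.12 in log2. It is named here after its values were seen.

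**Figure D5:**
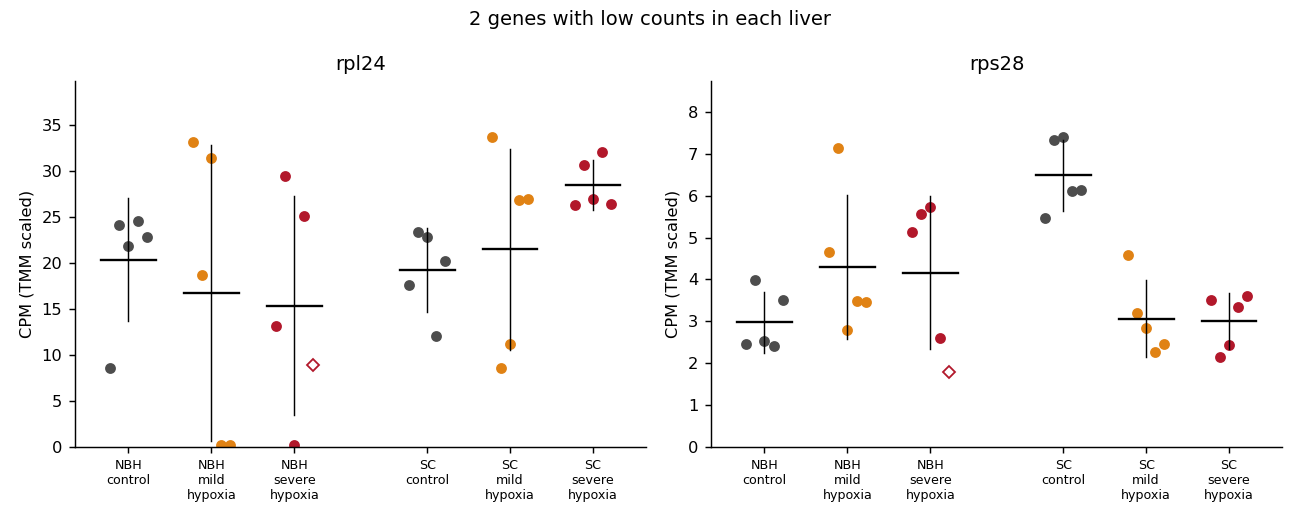
TMM-scaled CPM of rpl24 and rps28, which both have low counts, in each of the 30 livers. Each point is 1 fish, the open diamond is NBH severe hypoxia replicate 5, the horizontal line is the group mean and the vertical bar is 1 SD either way. For rpl24, 3 NBH hypoxia fish lie near 0 and all others at or above 8.52 CPM, and for rps28 the SC control fish, at 5.46 to 7.41 CPM, lie above all other SC fish and all NBH control fish.

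Under mild hypoxia NBH fish were set against SC fish at the same oxygen level. edgeR called 0 members, against 1.25% of all genes. It had 23 members at an unadjusted p under 0.05, beside 1992 of all 13609 tested genes. DESeq2 called 1, rps27.2, and the share of all genes it called is not given here. The log2 fold change of NBH over SC was positive in 74 of 77 members, with a median of 0.32 against 0.00 for all genes. As the members mostly move together within groups, these 74 are not independent observations. In 4 members, rpl12, rplp0, rps16 and rps27.2, all NBH fish lay above all SC fish, against 2.15% of all genes. For rplp0 the values were 2609, 3347, 2517, 3201 and 2648 CPM in NBH mild hypoxia, against 2498, 1923, 2045, 2040 and 2467 CPM in SC mild hypoxia (log2 fold change 0.38 ± 0.157, edgeR adjusted p = 0.230). Under severe hypoxia edgeR called 0 members, against 7.32% of all genes. It had 1 member at an unadjusted p under 0.05, beside 3316 of all 13609 tested genes. DESeq2 called 1, rpl5a, and again its share over all genes is not given. The log2 fold change of rpl5a was -0.69 ± 0.230 in edgeR (adjusted p = 0.0641) and -0.67 in DESeq2 (adjusted p = 0.0444). The median over members was -0.02 with 30 fish and 0.11 with 29 fish.

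The difference between populations in the response to hypoxia was called by edgeR for 0 members at either level, against 0 of all genes for mild and 0.00735% for severe hypoxia. For mild hypoxia 73 of 77 members had a positive difference, NBH minus SC, with a median of 0.31 against 0.01 for all genes. These 73 share their libraries too and are not independent observations. In edgeR 4 members had an unadjusted p under 0.05, beside 1046 of all 13609 tested genes. DESeq2 called 0. For severe hypoxia the median was -0.04. In edgeR 1 member had an unadjusted p under 0.05, beside 1491 of all 13609 tested genes. DESeq2 called 1, the rps28 difference above, and its share over all genes is not given here.

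Genes that act with the ribosomal proteins were taken from 3 lists. Of 43 listed translation factors and other TOP messages, 16 were in the files and 15 were tested. In NBH mild hypoxia 1 rose and 1 fell, in NBH severe hypoxia 0 rose and 1 fell, in SC severe hypoxia 0 rose and 2 fell. In SC mild hypoxia edgeR called 0 of the 15, with 2 at an unadjusted p under 0.05, beside 4004 of all 13609 tested genes. Beside the 21%, 14%, 28.7% and 13.6% of all tested genes called in these comparisons, the list had a smaller share of calls in each. The list's median log2 fold change was 0.19 in NBH mild, -0.10 in NBH severe, 0.00 in SC mild hypoxia and -0.09 in SC severe hypoxia. The gene that fell in NBH mild hypoxia was faua, whose precursor yields the small subunit protein eS30, with 40.2, 38.7, 34.4, 47.0 and 42.2 CPM, against 75.2, 89.2, 93.5, 49.9 and 63.8 CPM in NBH control (log2 fold change -0.88 ± 0.257, edgeR adjusted p = 0.0167). All mild hypoxia fish lay below all controls. The elongation genes eef1g and eef1db, subunits of the factor that recharges eEF1A, fell in SC severe hypoxia by 0.49 and by 0.68 on the log2 scale. The 2 that complete these calls were naca, part of the nascent chain complex, which fell by 0.51 in NBH severe hypoxia with 30 fish and was not called with 29 fish (log2 fold change -0.41, edgeR adjusted p = 0.0824), and btf3l4, which rose by 0.80 in NBH mild hypoxia.

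Of 35 listed genes of the TOR branch that controls TOP translation, 22 were tested. In NBH fish 3 rose and 4 fell in mild and 3 rose and 3 fell in severe hypoxia, and in SC fish 2 rose and 2 fell in mild and 6 rose and 4 fell in severe hypoxia. With 29 fish 4 rose and 4 fell in NBH severe hypoxia. All tested genes were called at 21% in NBH mild, 14% in NBH severe (17.5% with 29 fish), 13.6% in SC mild hypoxia and 28.7% in SC severe hypoxia, and nothing particular to this list is read from its counts. The 4E-binding proteins hold back cap-dependent translation and are inactivated by TOR. The log2 fold change of eif4ebp1 was -0.67 in NBH mild, -0.67 in NBH severe, -0.70 in SC mild hypoxia and -1.06 in SC severe hypoxia, all called. For eif4ebp2, also called in each, the log2 fold change was -1.19 ± 0.188 in NBH mild, -0.91 ± 0.187 in NBH severe, -0.96 ± 0.188 in SC mild hypoxia and -1.13 ± 0.188 in SC severe hypoxia. Its levels were 38.1 to 58.7 CPM in NBH severe hypoxia, against 66.5 to 111 CPM in NBH control. The third tested gene of this family, eif4ebp3l, was not called, with log2 fold changes of 0.55 ± 0.240 in NBH mild, 0.15 ± 0.239 in NBH severe, -0.07 ± 0.239 in SC mild hypoxia and 0.43 ± 0.239 in SC severe hypoxia. The kinase that inhibits elongation factor 2, eef2k, rose in severe hypoxia by 1.29 ± 0.372 in NBH and by 1.201 ± 0.369 in SC fish on the log2 scale (edgeR adjusted p = 0.0207 and 0.0162). The TOR inhibitor ddit4 rose in NBH severe hypoxia (log2 fold change 1.90 ± 0.534, edgeR adjusted p = 0.0180, and 1.57 with adjusted p = 0.0451 in 29 fish) and had 1.31 ± 0.524 in SC severe hypoxia (edgeR adjusted p = 0.0598). The TOP-binding protein larp1 rose in SC severe hypoxia (log2 fold change 1.16 ± 0.334, edgeR adjusted p = 0.0107). With 29 fish, mtor and tsc1b rose in NBH severe hypoxia (log2 fold changes 0.55 and 0.56, edgeR adjusted p = 0.0340 and 0.0297). In the same fit rhebl1 and larp4ab fell (log2 fold changes -1.32 and -1.06, edgeR adjusted p = 0.00487 and 0.0162). The genes named are a part of the list's calls, and no direction of the branch is read from them. Between populations, tsc2, a brake on TOR, was higher in NBH fish by 1.62 at control, 0.95 at mild and 1.37 at severe hypoxia in log2 (edgeR adjusted p = 3.64e-04, 0.0403 and 0.00121).

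Of 23 listed chaperones and importers of ribosomal proteins and assembly factors, 18 were tested. In NBH fish 6 rose and 0 fell in mild and 3 rose and 1 fell in severe hypoxia, and in SC fish 2 rose and 2 fell in mild and 3 rose and 1 fell in severe hypoxia. With 29 fish 5 rose and 2 fell in NBH severe hypoxia. The 2 that fell were tnpo1 and nmd3 (log2 fold changes -0.82 and -0.76, edgeR adjusted p = 0.0170 and 0.00959). The genes named below for a change with hypoxia are ones that rose. Beside the shares of all tested genes just given, the called share of this list was smaller in SC severe hypoxia and larger in the other 3 comparisons, which was not tested. The gene grwd1, a chaperone of rpl3, had 12.8, 12.8, 7.27, 14.03 and 15.3 CPM in NBH mild hypoxia, against 3.85, 4.35, 6.68, 6.10 and 6.56 CPM in NBH control. All mild hypoxia fish were higher (log2 fold change 1.17 ± 0.210, edgeR adjusted p = 4.64e-04). Its log2 fold change was 0.62 ± 0.210 in NBH severe, 0.74 ± 0.207 in SC mild hypoxia and 1.14 ± 0.205 in SC severe hypoxia, with edgeR adjusted p of 0.0470, 0.0172 and 2.14e-04. The ribosome recycling factor abce1 rose by 1.12 in NBH mild, by 0.71 in SC mild hypoxia and by 0.90 in SC severe hypoxia in log2, and had 0.50 ± 0.196 in NBH severe hypoxia (edgeR adjusted p = 0.0839, and 0.63 with adjusted p = 0.0229 in 29 fish). In NBH mild hypoxia rrs1, which helps place rpl5 and rpl11 with 5S RNA, rose by 1.26, and the large subunit assembly factors bxdc2 and mdn1 by 1.29 and 0.79 in log2. In severe hypoxia grwd1, rrs1, bxdc2 and abce1 were lower in NBH than in SC fish, with log2 fold changes of -0.71, -0.78, -1.27 and -0.94. NBH severe hypoxia replicate 5 was the lowest of its group in all 4 genes. Without it bxdc2 and abce1 were called (log2 fold changes -1.12 and -0.82, edgeR adjusted p = 0.0463 and 0.0105), and grwd1 and rrs1 were not (-0.62 and -0.60, edgeR adjusted p = 0.0624 and 0.0510).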

How the data were processed

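Livers of 30 killifish, 5 in each of 6 groups by population and oxygen level, were profiled by stranded single-end RNA-seq. The deposited values are raw counts per gene. The authors trimmed reads with Trimmomatic, aligned them with STAR to the killifish genome and counted them with HTSeq-count. Bisulfite samples were not analysed here. The filterByExpr function of edgeR 4.0.16 (R 4.3.3), told the 6 groups, left 13609 of 34089 genes with 99.9% of counts. TMM factors set library sizes, and a quasi-likelihood model in the earlier form of glmQLFit had a coefficient for each group. Adjusted p-values are Benjamini-Hochberg over all genes tested within a contrast, called under 0.05, and each SE was derived from the fold change and its F statistic. CPM is counts over the TMM-scaled library size, and log2 CPM has a prior count of 2. Depth, 4955114 to 23849931 counts, limits members of few counts.

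The study left out 1 NBH severe hypoxia fish without naming it. All 30 are used here, and 29 fish are an alternative. No replicate pair was close enough to be a repeat deposit of 1 library. Replicate numbers did not pair fish, as the correlation of same-numbered deviations ran from -0.24 to 0.22.

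Named members are the 6 smallest adjusted p in each contrast, called members against the contrast's main direction, and symbols that mark paralogs or other proteins. A clause naming the highest and lowest per kilobase was not applied, since the gene table used holds only genomic spans. Members, lists and tests were chosen with earlier results of these data known. All 78 members matched the RefSeq gene table of assembly MU-UCD_Fhet_4.1, 72 on a chromosome. The fit was tested on simulated data. Alternatives were no TMM factors, scaling to ribosomal protein counts (added after the data were seen, as were 29-fish fits of listed genes), TMM without the members, other filters, the newer quasi-likelihood method, DESeq2 1.42.0, thinned counts, only the groups compared, a replicate block, members without marked symbols, and leaving out each fish.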

Additional observations from a re-analysis of the deposited data

Results flagged for a closer look

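9 values lay far from the other fish of their group by Dixon's criterion, among 120 groups of 5 fish checked, and chance would mark about 1 in 20 groups. The checks reuse the same 30 fish, and many of the genes move together. They are therefore not independent, and nothing is read from the 9 beside that rate.

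7 of them belong to NBH mild hypoxia replicate 3. It was the highest of its group for rpl29 (3136 CPM, next fish 1119), rpl32 (4096 CPM, next 2398), rpl36 (3459 CPM, next 1549), rpl39 (2101 CPM, next 1168), rps21 (2114 CPM, next 1005) and rps29 (2303 CPM, next 919). For each of these 6 genes its value lay within the range of the NBH control fish. It was the lowest of its group for rps27.2 (108 CPM, next 128). The TMM factor of this fish, 0.903, was the lowest of the 20 hypoxia fish, and its most abundant gene took 8.59% of counts, the largest such share among them. The part of these values in the levels above was not tested.

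In SC severe hypoxia, replicate 5 was the lowest for rpl5a, at 26.5 CPM with the next fish at 59.7 CPM. The same fish had the highest share of the 6-gene set led by rpl29 in its group, 12.9%. Replicate 4 of SC severe hypoxia had the highest share of counts in large subunit genes, 6.15%, with the next fish at 5.55%.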

How the results depend on the processing

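The number of called members moved with the scaling in most hypoxia comparisons. Without TMM factors it was 28 in SC severe, 53 in NBH mild and 28 in NBH severe hypoxia, stayed at 8 in SC mild hypoxia, and was 1 for NBH over SC in severe hypoxia (rpl5a). Scaled to the total of ribosomal protein counts, an alternative chosen after seeing the data, it was 15 in SC mild, 27 in SC severe, 24 in NBH mild and 16 in NBH severe hypoxia. Without a filter it was 4 in SC mild and 5 in NBH severe hypoxia and 0 between control groups, where thinning also gave 0. Fitting only the groups compared gave 5 in SC mild and 28 in NBH mild hypoxia. DESeq2 gave 1 each for NBH over SC in mild and severe hypoxia and for the difference of severe responses. Leaving out 1 fish at a time, the number ran from 3 to 13 in SC mild, 8 to 17 in SC severe, 7 to 24 in NBH mild and 5 to 9 in NBH severe hypoxia, and from 0 to 1 for NBH severe over mild hypoxia, NBH over SC at control and NBH over SC in severe hypoxia, and was 0 in the other comparisons. In SC mild hypoxia it was 4, 4, 3 and 13 without SC mild hypoxia replicate 2, 3, 4 and 5, and 3 and 5 without SC control replicate 3 and 5. In NBH mild hypoxia it was 7, 7 and 8 without NBH mild hypoxia replicate 2, 4 and 5, 7 and 9 without NBH control replicate 1 and 2, and 24 without NBH severe hypoxia replicate 5. In NBH severe hypoxia it was 5 without its replicate 3 or NBH control replicate 2. For NBH severe over mild hypoxia it was 1 without NBH severe hypoxia replicate 2, and for NBH over SC in severe hypoxia 1 without NBH severe hypoxia replicate 3 or SC severe hypoxia replicate 5. The share of all genes called moves with the fit as well, from 21% to 24% in NBH mild hypoxia without NBH severe hypoxia replicate 5. Beyond the 29-fish fit and the scalings described above, that share is not given here. No change in these numbers is therefore read as particular to the members. The causes were not tested. With a replicate block, although same-numbered fish did not deviate together, 8, 9, 13 and 7 members were called in SC mild, SC severe, NBH mild and NBH severe hypoxia, and 5 of 43 single calls were lost. Of those 43 calls, 43 passed in DESeq2, 34 after thinning, 34 with the ribosomal protein scaling, 28 without a filter and 25 without TMM factors. Every call lost without TMM factors was a lower call. No call changed direction. Thinned to the smallest library, rps28 was not called between control groups.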

Other observations

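The translation initiation gene eif3ea was at or under 0.1 CPM in all 15 SC fish. In NBH fish it had 7.2 to 14.3 CPM in control, and 0.0 CPM in mild hypoxia replicates 1 and 3 and severe hypoxia replicate 2, with 2.5 to 15.6 CPM in the other NBH hypoxia fish. No fold is given, since the SC level rests on a few reads.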
